A study of Mus musculus with 6 samples.

Results

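The genes described here encode clotting factors that macrophages can make, the cell-surface cofactors that start or restrain clotting, and the urokinase system that dissolves fibrin, with one of its inhibitors. There were 9 of them among 56691 gene rows: F13a1, F10, F7, F5, F3, Thbd, Plau, Plaur and Serpinb2. Each was found by its Ensembl identifier, with the version number dropped, in the count table of every library, for example ENSMUSG00000039109.18 for F13a1, ENSMUSG00000031443.8 for F7 and ENSMUSG00000031444.17 for F10. The set was chosen by the genes' roles and by earlier results of the comparison of thiothixene with DMSO in these libraries, in which F13a1 ranked 21 of 14856 genes by unadjusted p. All differences between treatments in these 9 genes are therefore given as a description.

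Gene expression was measured by RNA sequencing of mouse bone marrow-derived macrophages, phagocytes grown from marrow precursors, from 3 mice named a, b and c. Macrophages were seeded on day 4 of differentiation and given 2 µM thiothixene, an antipsychotic that blocks dopamine receptors, or the solvent DMSO on day 6, for 24 h. Each mouse gave 1 thiothixene library and 1 DMSO library, so that 3 libraries stood against 3. The sources used here do not give the strain, sex and age of the mice.

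In the extrinsic pathway of coagulation, tissue factor on a cell surface binds factor VIIa, and this complex activates factor X. Factor Xa, with factor Va as its cofactor, converts prothrombin to thrombin, thrombin makes fibrin, and factor XIIIa cross-links it. Thrombomodulin captures thrombin and turns it towards protein C activation, while urokinase, held at the cell surface by its receptor, makes plasmin, which digests fibrin. Macrophages are known for making the A subunit of factor XIII and urokinase, and activated ones for tissue factor.

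Gene counts per library were 18548095 to 20264090 with thiothixene and 10472349 to 22297520 with DMSO. Of 14856 genes tested, between 19 and 24 had 0 counts in thiothixene libraries b and c and in DMSO library a. The 3 others stood apart, with 126 such genes in thiothixene library a, 266 in DMSO library b and 588 in DMSO library c. The 8 macrophage markers, led by Lyz2, summed to 8744 to 10250 CPM under thiothixene and 8801 to 16963 CPM under DMSO. The 7 of them that could be tested all had a log2 fold change below 0, as did 8121 of all 14856 tested genes. CPM stands for counts scaled to a common library size, with TMM factors. Itgam, the integrin gene that macrophages use widely, had 1 count over the 6 libraries. The reason was not tested, so counts near 0 are given as listed and are not read as absence of a transcript. T and B cell markers summed to at most 0.543 CPM.

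The clotting protease genes F7 and F10 lie next to each other on chromosome 8, on the plus strand of GRCm38. F7 spans chr8:13026034-13035809 and F10 chr8:13037308-13056676, with 1498 bases between them. F13a1 spans chr13:36867178-37050244 on the minus strand. The others are scattered, with F5 at chr1:164151838-164220277, Serpinb2 at chr1:107511423-107535478, F3 at chr3:121723537-121735048, Plaur at chr7:24462484-24475968 and Plau at chr14:20836660-20843385 on the plus strand, and Thbd at chr2:148404466-148408188 on the minus strand. Of the 9 genes 7 had a promoter window in the RefSeq table of GRCm38.p6, and Thbd and Plau had none. The stretches below are the 250 bases before the annotated start. They are shown for F7 and F10 because these neighbours were higher together, for F5 because it shares their motif without sharing their pattern, and for F13a1 as the leading gene. Capitals in the first 3 mark the letters TGACCT, which read AGGTCA on the other strand, the half-site bound by many nuclear receptors. Capitals in the last mark GAGGAA, a core of sites for PU.1-type factors. These motifs were chosen with the sequences in view.
F7, chr8:13025784-13026033, plus strand: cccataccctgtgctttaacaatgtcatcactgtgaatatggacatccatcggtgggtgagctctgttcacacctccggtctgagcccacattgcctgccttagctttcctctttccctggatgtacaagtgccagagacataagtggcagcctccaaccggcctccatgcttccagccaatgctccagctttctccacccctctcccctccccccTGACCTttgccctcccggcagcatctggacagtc
F10, chr8:13037058-13037307, plus strand: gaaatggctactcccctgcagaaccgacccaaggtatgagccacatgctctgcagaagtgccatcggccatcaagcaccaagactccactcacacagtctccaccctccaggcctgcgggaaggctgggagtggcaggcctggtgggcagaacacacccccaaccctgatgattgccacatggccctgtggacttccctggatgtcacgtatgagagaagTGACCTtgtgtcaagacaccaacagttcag
F5, chr1:164151585-164151834, plus strand: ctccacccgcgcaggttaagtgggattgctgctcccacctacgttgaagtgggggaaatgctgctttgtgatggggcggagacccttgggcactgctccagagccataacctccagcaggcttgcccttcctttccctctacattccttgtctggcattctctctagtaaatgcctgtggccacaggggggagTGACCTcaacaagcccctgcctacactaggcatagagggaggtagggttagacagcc
F13a1, chr13:37050245-37050494, minus strand: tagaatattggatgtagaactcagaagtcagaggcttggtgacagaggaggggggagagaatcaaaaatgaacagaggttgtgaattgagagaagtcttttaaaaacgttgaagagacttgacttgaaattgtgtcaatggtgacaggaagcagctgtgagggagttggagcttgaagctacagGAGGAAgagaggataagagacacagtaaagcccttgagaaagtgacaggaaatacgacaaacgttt

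The AGGTCA half-site began 34 bases before the start of F7, 30 bases before that of F10 and 57 bases before that of F5, each time on the strand opposite to the gene. It was in none of the windows of F13a1, F3, Plaur or Serpinb2. Over all 32851 RefSeq windows of this length, searched on both strands, 14.0% held it. The letters TGACTCA, a site for AP-1 factors, were found before F3 and Plaur among these genes and in 4.46% of all windows. GAGGAA was found before F13a1, F7 and Plaur, with 23.3% of all windows holding it. The 3 motifs do not overlap in the stretches printed. A second annotated start of F13a1 had none of the 3 motifs. A match in letters is a description and not evidence of binding.

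F13a1, which encodes the A subunit of factor XIII, the transglutaminase that cross-links fibrin, was lower with thiothixene. For mice a, b and c it stood at 32.1, 27.3 and 28.4 CPM under thiothixene, against 66.7, 47.7 and 75.0 CPM under DMSO. Every thiothixene library lay below every DMSO library, and the DMSO libraries differed more among themselves than the thiothixene libraries did. The thiothixene mean was 29.3 ± 2.53 CPM and the DMSO mean 63.2 ± 14.0 CPM (SD, n = 3 each). In edgeR the log2 fold change was -1.11 (SE 0.29, 95% interval -1.78 to -0.44). The log2 difference of CPM within mice a, b and c was -1.05, -0.80 and -1.40. Without the 3 libraries that stand apart edgeR gave -1.25 (SE 0.14), a fit in which the spread around its single DMSO library is taken from the others. Every SE of that fit, here and for the genes below, thus holds no spread between DMSO libraries. In bulk RNA, fewer cells that make a transcript and less of it per cell cannot be told apart.

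Whether counting used the strand is not stated, and F13a1 overlaps 2 annotated antisense genes, so reads of the pair cannot be told apart with certainty. Gm49144 measured 12.6, 16.1 and 12.4 CPM under thiothixene and 28.4, 39.1 and 34.8 CPM under DMSO for mice a, b and c. Gm30489 measured 3.99, 3.01 and 3.45 CPM under thiothixene and 7.50, 1.56 and 10.2 CPM under DMSO. Gm49144 lay lower with thiothixene without overlap of the groups, as F13a1 did, whereas the groups of Gm30489 overlapped. F7, F10, F3, Thbd, Plau and Plaur overlap no annotated gene, F5 overlaps 2 genes with at most 0.444 CPM, and Serpinb2 overlaps Serpinb10, with at most 0.902 CPM.

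Factor XIII A is also a product of monocytes and platelets, so their markers are given beside it. The 6 monocyte markers summed to 136, 111 and 135 CPM under thiothixene and 150, 191 and 190 CPM under DMSO, so that this list too was lower in every thiothixene library. Chil3 was its most abundant gene, and 5 of 6 monocyte markers had a log2 fold change below 0. The 8 megakaryocyte and platelet markers summed to 300.1, 429 and 503 CPM under thiothixene and 685, 1533 and 345 CPM under DMSO, mostly from Pf4, and the groups overlapped. Of these 8, Gp1bb had 0 counts in every library and Gp9 at most 0.592 CPM. Of the 8, 5 could be tested and all 5 had a log2 fold change below 0. Among them Clec1b, the gene of a platelet lectin receptor, was lower in every thiothixene library at 0.268 to 0.475 CPM, against 0.804 to 2.47 CPM under DMSO. The 6 perivascular macrophage markers summed to 723 to 998 CPM under thiothixene and 702 to 1226 CPM under DMSO, mostly from the mannose receptor gene Mrc1. Of these 6, 4 could be tested and all 4 were below 0. Cd163, a haemoglobin scavenger receptor gene, was at 20.1, 11.7 and 11.1 CPM under thiothixene and 55.0, 17.2 and 45.3 CPM under DMSO, with a log2 fold change of -1.45 (SE 0.48), and was lower in each mouse although the groups overlapped. Cbr2, a carbonyl reductase gene, was at 6.08, 8.32 and 4.54 CPM under thiothixene and 11.7, 36.5 and 8.45 CPM under DMSO, with a log2 fold change of -1.57 (SE 0.59) and without overlap. Lyve1, a defining marker of that list, was at 0 in the thiothixene libraries and at most 0.670 CPM under DMSO. Clec1b, Cd163 and Cbr2 were singled out after their values were seen, and 0 genes of these lists passed the adjusted p of 0.05 in edgeR. Of all 14856 tested genes, 8121 also had a log2 fold change below 0. So did all 7 tested neutrophil markers and the 2 tested markers of large peritoneal macrophages. The neutrophil list summed to 333 to 392 CPM under thiothixene and 359 to 843 CPM under DMSO. By contrast, 3 of 5 tested stromal and 2 of 3 tested endothelial markers were above 0. Signs below 0 were thus not particular to the lists set beside F13a1. The part of these lists in the level of F13a1 was not tested.

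F7, which encodes factor VII, the protease that tissue factor binds, was higher with thiothixene. For mice a, b and c it stood at 16.4, 15.2 and 13.2 CPM under thiothixene, against 4.78, 8.04 and 2.82 CPM under DMSO. The groups did not overlap, and the DMSO library of mouse b was the nearest to the thiothixene libraries. The thiothixene mean was 14.9 ± 1.60 CPM and the DMSO mean 5.21 ± 2.64 CPM (SD, n = 3 each). This gave a log2 fold change of 1.53 (SE 0.45, 95% interval 0.51 to 2.56), and 1.58 (SE 0.29) without the 3 libraries that stand apart.

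F10, which encodes factor X, the protease that factor VIIa activates, followed the same order of libraries at a lower level. It measured 3.94, 3.38 and 2.91 CPM under thiothixene, against 0.804, 2.46 and 0.683 CPM under DMSO, from 59 to 83 counts and from 16 to 22 counts per library. The groups again did not overlap, and again the DMSO library of mouse b was the nearest. Its log2 fold change was 1.42 (SE 0.65, 95% interval -0.06 to 2.90). It was 2.19 without the DMSO library of mouse b and 1.97 (SE 0.65) without the 3 libraries that stand apart.

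Per kilobase of exon, the level of F7 was 6.11, 6.62 and 6.67 times that of F10 in the thiothixene libraries and 8.73, 4.81 and 6.06 times in the DMSO libraries. The mean ratio was 6.47 ± 0.314 with thiothixene and 6.53 ± 2.00 with DMSO (SD, n = 3 each), so that it differed by less than the spread between replicates. F7 and F10 were also the closest pair among the 28 pairs of tested members. The root mean square difference of their centred log2 CPM over the 6 libraries was 0.234, and the next pair, Plaur and Thbd, was at 0.576.

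The neighbours of F7 and F10 within 150000 bases were looked up after their values were seen. Proz, which encodes protein Z, a cofactor in factor Xa inhibition, lies directly beyond F10 and measured 3.25 ± 0.568 CPM under thiothixene and 3.76 ± 2.14 CPM under DMSO (SD, n = 3 each). Its log2 fold change was -0.22 (SE 0.53). On the other side Mcf2l, a guanine nucleotide exchange factor gene, was at 0.70 (SE 0.50). Log2 fold changes of Pcid2, Cul4a, Lamp1 and Grtp1 lay between -0.02 and 0.32. All 6 of these intervals include 0, and differences between F7 or F10 and a neighbour were not tested.

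**Figure D1:**
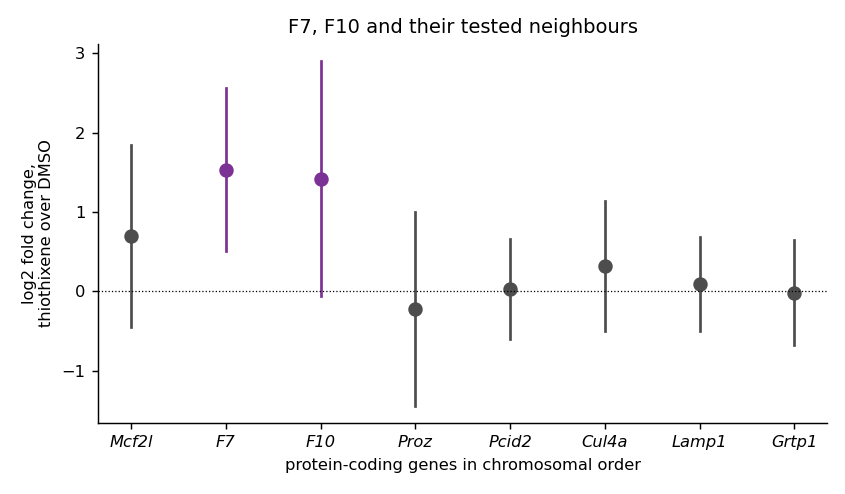
Log2 fold change of thiothixene over DMSO in edgeR (y axis; points are estimates from 6 libraries, bars 95% intervals) for the tested protein-coding genes around F7 and F10, in chromosomal order (x axis). F7 and F10, in purple, are at 1.53 and 1.42, and Proz, next to F10, is at -0.22.

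F5 encodes factor V, the cofactor of factor Xa. It measured 1.66, 1.45 and 2.12 CPM under thiothixene and 1.43, 0.335 and 5.72 CPM under DMSO for mice a, b and c. Both extremes were DMSO libraries, mouse c with 134 counts and mouse b with 3 counts, and the groups overlapped. The fold change, -0.54 on the log2 scale (SE 0.88), was not stable. It turned to 0.90 without the DMSO library of mouse c, to 0.33 without the 3 libraries that stand apart and to 0.16 with the mouse as a block.

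F3 encodes tissue factor, the receptor that starts clotting. It had 13, 2 and 8 counts with thiothixene and 2, 17 and 30 counts with DMSO, or 0.617, 0.107 and 0.395 CPM against 0.0893, 1.90 and 1.28 CPM. Its log2 fold change of -1.49 had a 95% interval from -4.13 to 1.15, too wide at this depth to show a direction. Mouse a was higher with thiothixene and mice b and c were lower.

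Thbd encodes thrombomodulin, the endothelial and myeloid receptor that turns thrombin into an anticoagulant. It measured 27.5, 31.1 and 32.6 CPM under thiothixene and 34.0, 23.5 and 26.1 CPM under DMSO. The groups overlapped and the log2 fold change of 0.12 (SE 0.29, 95% interval -0.54 to 0.79) was the smallest in size among the tested members. It was -0.09 (SE 0.16) without the 3 libraries that stand apart.

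Plau, which encodes urokinase, the protease that activates plasminogen, was the most abundant member by far. For mice a, b and c it stood at 575, 527 and 616 CPM under thiothixene, against 234, 265 and 553 CPM under DMSO. The thiothixene library was the higher in each mouse, but in mouse c by a small margin, and the DMSO library of mouse c lay above the thiothixene library of mouse b. The thiothixene mean was 572 ± 44.5 CPM and the DMSO mean 351 ± 176 CPM (SD, n = 3 each). Plau had a log2 fold change of 0.71 (SE 0.37, 95% interval -0.15 to 1.56), 1.20 (SE 0.29) without the DMSO library of mouse c and 1.29 (SE 0.11) without the 3 libraries that stand apart.

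Plaur encodes the urokinase receptor. It measured 43.1, 74.3 and 98.6 CPM under thiothixene and 32.5, 64.2 and 39.7 CPM under DMSO. The thiothixene library was the higher in each mouse, while mouse a had the lowest value under both treatments, and the groups overlapped. Plaur had a log2 fold change of 0.66 (SE 0.40, 95% interval -0.25 to 1.58). It was 0.29 without both libraries of mouse c, 0.38 without the thiothixene library of mouse c, 1.00 without the DMSO library of mouse b and 1.42 (SE 0.17) without the 3 libraries that stand apart.

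Serpinb2 encodes plasminogen activator inhibitor type 2, an intracellular and secreted inhibitor of urokinase. It had 0, 0 and 8 counts with thiothixene and 6, 6 and 40 counts with DMSO, too few to enter the test. The counts of 0 allow levels up to 0.142 CPM in mouse a and 0.161 CPM in mouse b, counting error alone considered. The thiothixene library was the lower in each mouse, but its 0.395 CPM in mouse c lay above the 0.268 CPM of the DMSO library of mouse a, so the groups overlapped.

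**Figure D2:**
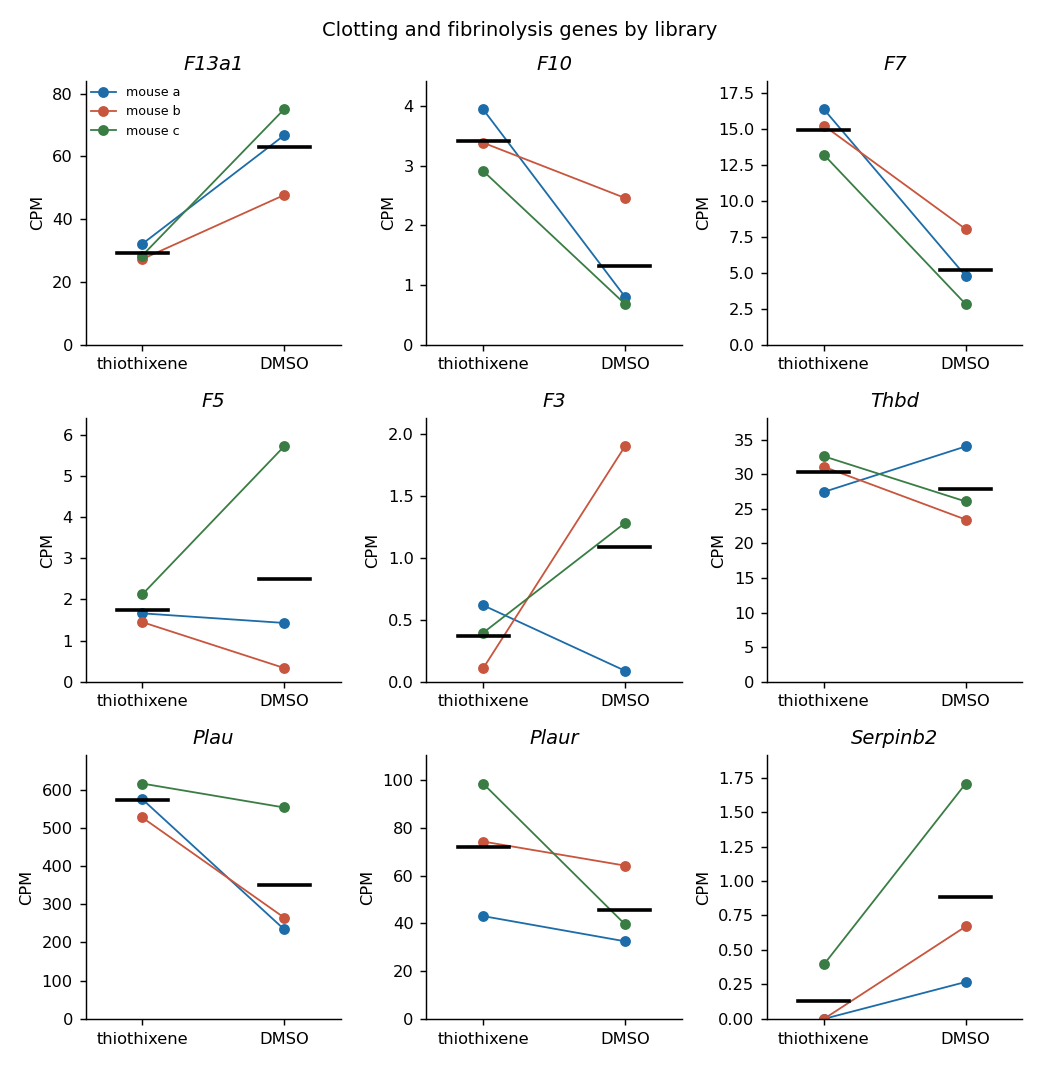
Level of each of the 9 genes (y axis, CPM, from 0) in the thiothixene and DMSO libraries (x axis), with a line for each mouse and a black bar at each group mean of 3 libraries. F13a1 is lower and F7 and F10 are higher with thiothixene without overlap, and Plau and Plaur are higher within each mouse.

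Of the 8 members abundant enough to be tested, 0 passed an adjusted p of 0.05 in edgeR's quasi-likelihood test, where 0% of all tested genes did. At an unadjusted p under 0.05 there were 2, F13a1 and F7, beside 1.72% of all genes. DESeq2 and limma-voom also called 0 members, with 0.00815% and 0% of all genes called. Limma-voom with library quality weights called 1 member, F13a1, which was lower, and 0.168% of all genes, 0.0606% higher and 0.108% lower. In that weighted fit DMSO library a carried most of its group, at 2.28 beside 0.209 for b and 0.228 for c. Thiothixene libraries b and c, at 6.23 and 2.75, outweighed a, at 0.537. The weighted call of F13a1 thus leans on the same libraries as the fit given next and is not independent of it. Without the 3 libraries that stand apart edgeR called 4 of 7 members, with F7, Plau and Plaur higher and F13a1 lower, beside 6.99% of all genes, 4.02% higher and 2.97% lower. That fit sets thiothixene libraries b and c against DMSO library a, so mouse and treatment cannot be told apart.

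Groups did not overlap for 3 of 8 tested members, 2 higher and 1 lower with thiothixene, where 6.65% of all tested genes were so separated, 3.88% higher and 2.77% lower. Because F13a1 was chosen in this same comparison, nothing is read from that count. The thiothixene library was higher in 3 of 3 mice for F10, F7, Plau and Plaur, and 7.49% of all tested genes behaved so. It was lower in 3 of 3 mice for F13a1, beside 6.82% of all tested genes. The median log2 fold change of the tested members was 0.39, and that of all tested genes -0.04.

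**Figure D3:**
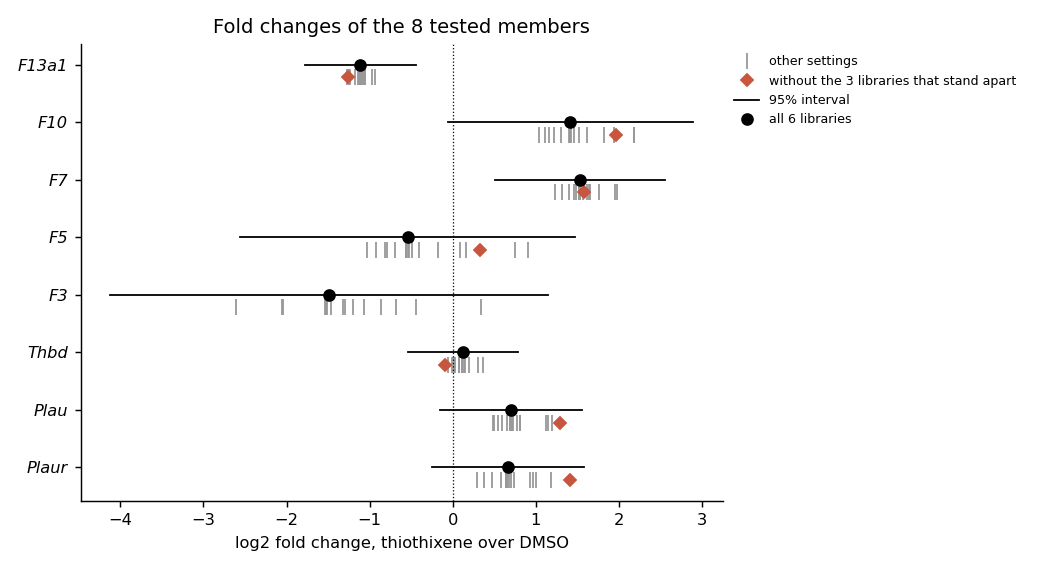
Log2 fold change of thiothixene over DMSO (x axis) for the 8 tested members (y axis): black points and bars are edgeR estimates with 95% intervals from 6 libraries, grey ticks the other settings, and red diamonds the fit without the 3 libraries that stand apart, from which F3 is absent. F13a1 stays below 0 and F10, F7, Plau and Plaur stay above 0 in every setting, while F5, F3 and Thbd lie on both sides.

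Levels of different genes were compared as CPM per kilobase of exon. With thiothixene the order was Plau, Plaur, Thbd, F7, F13a1, F10, F5, F3 and Serpinb2. Plau ranged from 223 to 260, Plaur from 16.5 to 37.7, Thbd from 7.37 to 8.76, F7 from 7.11 to 8.81 and F13a1 from 4.05 to 4.76 CPM per kilobase. Thbd and F7 overlapped, whereas Plau and Plaur, Plaur and Thbd, F7 and F13a1, and F13a1 and F10 did not. F10, at 1.25 ± 0.189 CPM per kilobase (SD, n = 3), did not overlap F5, at 0.195 to 0.285. F5 overlapped F3, and F3 overlapped Serpinb2.

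With DMSO the order of levels was Plau, Plaur, F13a1, Thbd, F7, F10, F3, Serpinb2 and F5. F13a1 ranged from 7.08 to 11.1 CPM per kilobase and overlapped Thbd, at 6.30 to 9.14, while F7 ranged from 1.51 to 4.33. F10 lay below F7 without overlap, and F10, F3, Serpinb2 and F5 each overlapped the next in that order. By this measure F7 stood above F13a1 in all 3 thiothixene libraries and below it in all 3 DMSO libraries. The order of this pair with thiothixene depends on the length used. Per kilobase of the longest transcript, F7 ranged from 7.11 to 8.81 and F13a1 from 6.90 to 8.12 in the thiothixene libraries, so that they overlapped, and in library c F13a1 was the higher, at 7.19 against 7.11. In CPM with no length, F13a1 was above F7 in every library. With DMSO, too, the order depends on the length. Per kilobase of the longest transcript, F3 ranked 6 and F10 ranked 7 with DMSO. In CPM with no length the DMSO ranks were 2 for F13a1, 3 for Plaur, 6 for F5, 7 for F10, 8 for F3 and 9 for Serpinb2.

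**Figure D4:**
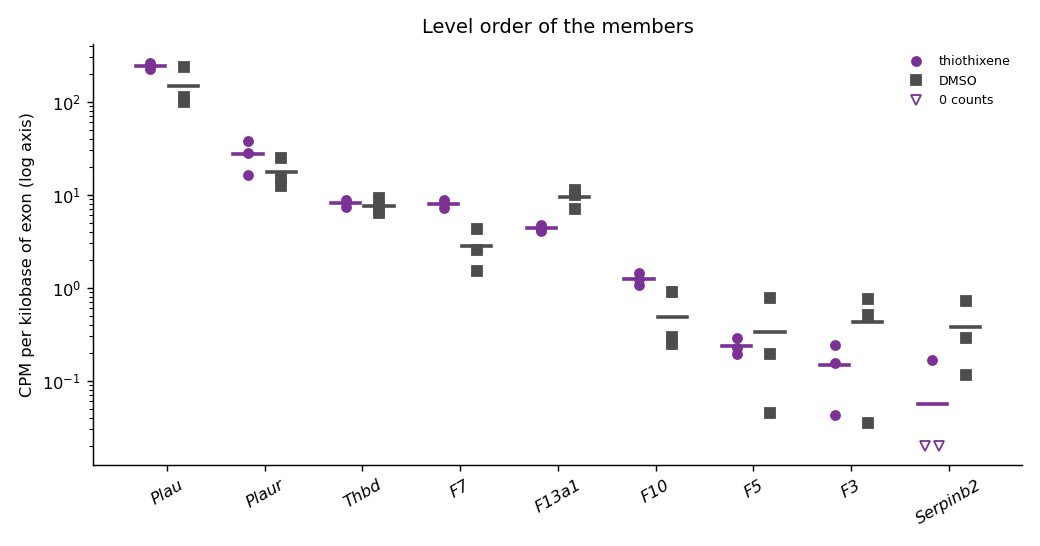
Level of each gene as CPM per kilobase of exon (y axis, log scale) in thiothixene libraries (purple circles) and DMSO libraries (grey squares), with a bar at each mean of 3 libraries; open triangles at the lower edge mark libraries with 0 counts. Plau is highest in both groups, and by this exon length F7 is above F13a1 with thiothixene and below it with DMSO.

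Of 50 other genes of coagulation and fibrinolysis 28 could be tested, and 0 passed in edgeR. DESeq2 and limma-voom, with or without quality weights, also called 0. Unadjusted p fell under 0.05 for 2 genes, both higher with thiothixene, where 0.882% of all tested genes were higher at that level and 0.841% lower. The list had 19 genes above 0 and 9 below, with a median log2 fold change of 0.15, beside 6735 above and 8121 below with a median of -0.04 over all tested genes. Fibrinogen genes, the prothrombin gene and the plasminogen gene Plg, made mainly by the liver, had 0 to 2 counts per library.

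The first of these 2 genes was Vwf, von Willebrand factor, the adhesive protein that carries factor VIII. It measured 64.3, 70.4 and 56.6 CPM under thiothixene and 33.3, 31.2 and 16.5 CPM under DMSO, without overlap, for a log2 fold change of 1.24 (SE 0.34). Endothelial markers summed to 12.8, 9.34 and 13.4 CPM under thiothixene and 5.27, 5.92 and 7.34 CPM under DMSO, without overlap. Most came from Kdr, whose own groups did not overlap, with a log2 fold change of 1.27 (SE 0.42). The groups of Cdh5, Pecam1, Tek and Esam each overlapped, and Esam was lower with thiothixene in each mouse. Tek was at most 0.475 CPM. Of 5 markers 3 could be tested, 2 above 0 and 1 below, the latter Cdh5 at -0.32 (SE 1.05). Among all tested genes 3.88% were, like Kdr, higher in every thiothixene library than in every DMSO library. The part of these markers in the level of Vwf was not tested. The second was Itgb3, the integrin beta chain that binds vitronectin and fibrinogen, at 13.6, 15.8 and 20.4 CPM under thiothixene and 8.17, 5.58 and 11.1 CPM under DMSO. Its groups did not overlap, and its log2 fold change was 0.99 (SE 0.38).

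Without the 3 libraries that stand apart 4 of 28 tested list genes were called, all of them higher, beside 4.02% of all genes called higher. They were Vwf at 0.94 (SE 0.16), Itgb3 at 1.15 (SE 0.26), the endothelial protein C receptor gene Procr at 1.81 (SE 0.49) and Eno1 at 0.41 (SE 0.09). Eno1, the glycolytic enolase that also serves as a plasminogen receptor, was at -0.29 (SE 0.46) over all 6 libraries. It has a near-identical retrogene copy, so its level is uncertain.

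Other list genes, taken by abundance, are given by their log2 fold change. Factor V and factor VIII leave the endoplasmic reticulum through a cargo receptor made of Lman1, at 0.20 (SE 0.32), and Mcfd2, at 0.14 (SE 0.26). The carboxylation that factors VII and X need for membrane binding rests on Ggcx, at 0.07 (SE 0.35), and on vitamin K recycling, with Vkorc1l1 at 0.07 (SE 0.39). All 4 log2 fold changes were smaller than their SE. The thrombin receptor gene F2r and its relative F2rl2 averaged between 0.573 and 1.16 CPM, with log2 fold changes of 0.57 (SE 0.70) and 0.38 (SE 0.83).

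Among anticoagulants Pros1, the protein S gene, measured 38.1 ± 6.60 CPM under thiothixene and 45.7 ± 10.5 CPM under DMSO. Tfpi, which encodes the inhibitor of the tissue factor complex, measured 22.2 ± 2.85 CPM under thiothixene and 27.6 ± 15.6 CPM under DMSO (SD, n = 3 each). Both differences were smaller than the larger SD. Lrp1, an endocytic receptor that clears proteases from the cell surface, had a log2 fold change of 0.32 (SE 0.37). Of the transglutaminases related to F13a1, Tgm2 was at -0.12 (SE 0.38) and Tgm4 at -0.56 (SE 0.39), and neither passed the test.

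The 8 genes nearest to F13a1 in pattern were found among 9580 other genes of mean CPM of at least 10, by the root mean square difference of centred log2 CPM over the 6 libraries. Those given here were Zfp36l1 at 0.151, Gm31243 at 0.175, Gm36161 at 0.180, Clec4a1 at 0.186, Ctsc at 0.188, Mtus1 at 0.200 and Rhobtb1 at 0.202. Zfp36l1 encodes an RNA-binding protein that promotes mRNA decay and Ctsc a lysosomal peptidase that activates granule proteases. Gm31243 is an antisense gene and Gm36161 a long non-coding RNA gene, and Clec4a1 has close paralogs, so these levels are uncertain. None of these 7 belonged to a list used here. Among genes of mean CPM of at least 10, 1 of the 5 nearest to F7 in pattern was in a list, Vwf, second at 0.301. F10 lay below that level and so outside this search, and was nearer to F7, at 0.234.

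**Figure D5:**
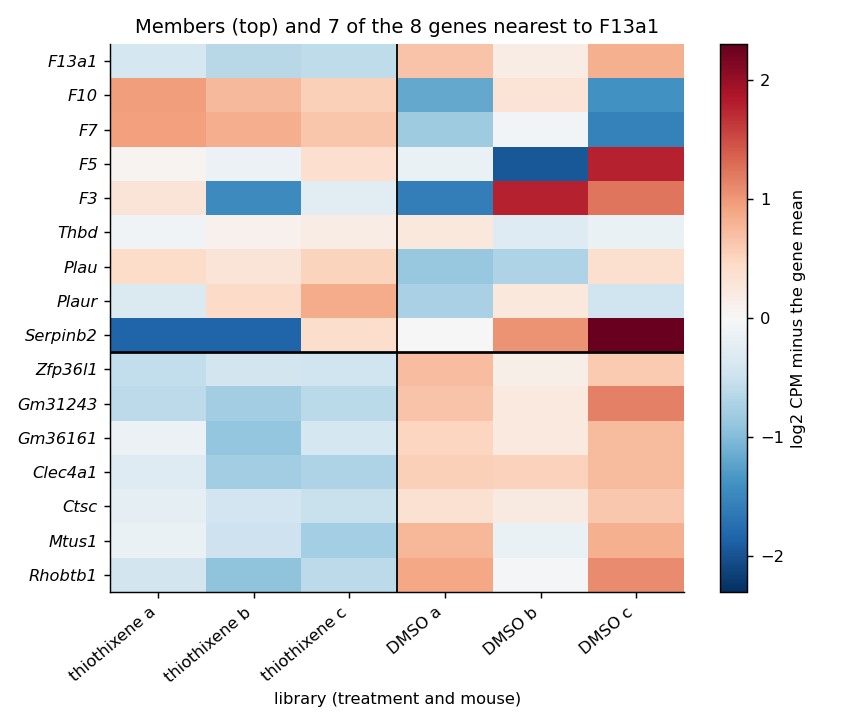
Log2 CPM minus the gene mean over 6 libraries (colour) for the 9 members, above the black line, and for 7 of the 8 genes nearest to F13a1, below it (y axis), in the thiothixene and DMSO libraries of mice a, b and c (x axis). F13a1 is between -0.64 and -0.41 with thiothixene and between 0.16 and 0.82 with DMSO, with the DMSO library of mouse b closest to the mean.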

How the data were processed

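RNA of macrophages from 3 mice was sequenced as paired ends, per the labels' protocols, in 6 libraries. For each library the authors deposited raw counts, as whole numbers, over 56691 gene rows, followed by 5 summary rows with no gene. Per the submitters' processing notes the tools were STAR 2.7.11b, Trim Galore 0.6.10, FastQC 0.11.8 and DESeq2 1.44 with mm10, with no roles named. How reads were counted, on which strand and with which annotation is not stated there. Of each library's total, 43.1% to 44.3% had no gene feature, 1.68% to 3.02% were ambiguous and 1.85% to 4.98% were not aligned. Rows that name no gene stayed out of library sizes and tests.

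Symbols, positions and exon lengths came from GENCODE M21 (GRCm38), which matched 52073 identifiers without version numbers. The other 4618 held 0.4% of counts. Treatment labels gave the groups and the letter in the titles the mouse. edgeR 4.0.16 in R 4.3.3 fitted all 14856 genes left by its expression filter, with TMM scaling, robust quasi-likelihood, only treatment in the model and Benjamini-Hochberg adjusted p at 0.05. SE is the absolute log2 fold change over the square root of F. Centred and within-mouse log2 CPM use a prior count of 2. Members, lists, motifs and alternatives were chosen with earlier results of these data known. Named genes were the members, the 2 most abundant tested genes of each list subgroup, list genes called or at an unadjusted p under 0.05, and the 8 nearest patterns; 2 of the genes so named are not reported here.

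Titles name the mouse, so libraries of a letter are taken as paired by mouse. Deviations from the group means correlated at -0.131, 0.318 and -0.301 for mice a, b and c, and highest, 0.486, between thiothixene a and DMSO c, so they do not themselves show a pairing. Alternatives were the mouse block, RLE scaling, other filters, DESeq2 1.42.0, limma-voom (limma 3.58.1) with and without quality weights, and leaving out libraries or mice. The fit was also tested on simulated data, with levels and spread taken from the fit to the real counts. Genes were planted only above an average of 5 CPM, so the recovery does not cover F10, F5 or F3. Of 50 genes planted at each log2 fold change of 1, 2, 3 and 4, the fit recovered 0, 5, 15 and 44, with 0 false calls. A lack of calls at the sizes seen here therefore does not show a lack of change. Limits from counts of 0 cover counting error only.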

Additional observations from a re-analysis of the deposited data

How the results depend on the processing

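The tested members were each recomputed under 17 alternatives, or 15 for F3, which gave 134 values: direction and call held in 120, a call was gained in 5, and the sign changed in 9. With the mouse as a replicate block edgeR called 0 genes, members or list genes, as without it, and F5 turned to 0.16. Leaving out any 1 library or mouse also gave 0 calls. Called genes numbered 1 when no gene was filtered out for low counts, 2 by DESeq2 and 25 when limma-voom weighted the libraries. There were 1105 in the fit that drops the 3 libraries apart from the rest, and 0 at an adjusted p of 0.1. Members called were 1 with quality weights and 4 without those 3 libraries, where 4 list genes were called as well. The log2 fold change of F13a1 ranged from -1.28 to -0.94, of F10 from 1.04 to 2.19, of F7 from 1.24 to 1.97, of Plau from 0.48 to 1.29 and of Plaur from 0.29 to 1.42; that of F5 ranged from -1.03, without DMSO library b, to 0.90, without DMSO library c, and that of F3 from -2.61 to 0.34. Signs turned for F5 (0.094 with quality weights, 0.75 without mouse c, 0.33 without the 3 libraries), F3 (0.34 with quality weights) and Thbd (-0.058 with quality weights, -0.0050 without mouse b, -0.090 without the 3 libraries). The cause was not tested. In the level order with thiothixene 7 of 9 genes kept their place when CPM was not divided by length, F7 and F13a1 being the exceptions, and 9 did per kilobase of the longest transcript. Low counts limit F3, F5, F10 and Serpinb2, and DMSO library b had the lowest depth, 10472349 counts.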
